A study of Mus musculus with 24 samples.

Results

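Fndc5, the gene of the membrane precursor of the muscle hormone irisin, was followed together with 9 genes of the PGC-1 energy axis, which are Ppargc1a, Ppargc1b, Esrra, Esrrb, Esrrg, Nrf1, Tfam, Ppara and Ppard. The 10 genes were chosen by symbol, and where a gene had several probe sets, that with the highest mean was to stand for it. On the arrays 8 of the 10 had an annotated probe set, among 22139 genes and unnamed probe sets in all, of which 19801 were tested, the 8 members included. No probe set was annotated to Esrra or Ppard, which were not analysed here. Fndc5 had been picked for its low level in TRα1+/m hearts without maternal T3, against wild-type hearts, so that difference is given as a description, while the other genes were taken for their place in the pathway.

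RNA came from whole hearts of 24 male C57/BL6NCr mice aged 4 to 5 months and kept at 22 °C, with 1 array per mouse. There were 4 groups of 6: TRα1+/m mice of T3-treated dams, wild-type mice of T3-treated dams, TRα1+/m mice of untreated dams and wild-type offspring of untreated dams. TRα1+/m mice carry 1 allele with the R384C mutation, which lowers the affinity of thyroid hormone receptor α1 for T3, and 1 normal allele, so both forms of the receptor are present in every tissue that uses the gene. All dams were wild type. Between embryonic days 12.5 and 18.5 their drinking water held 0.01% BSA, and that of the treated ones also T3 at 0.5 mg/L, and the offspring themselves received no hormone. The end day is that of the labels, and the study's methods state an earlier one. The litter of each mouse was not given in the sources used here, so the spread between mice cannot be separated from that between litters. Values are log2 signals after RMA normalisation, on which a difference of 1 is a doubling, and they are compared between groups for the same gene only. A gene passed, or is said to have risen or fallen, at an adjusted p under 0.05 in limma.

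PGC-1α and PGC-1β, the products of Ppargc1a and Ppargc1b, are coactivators that do not bind DNA themselves. They are recruited by nuclear receptors, above all the oestrogen-related receptors and PPARα, and by NRF1, and raise the transcription of genes for mitochondrial respiration and fatty acid oxidation, the main fuel pathway of the adult heart. NRF1 acts on nuclear genes of the respiratory chain and on Tfam, whose protein packs and transcribes mitochondrial DNA. In skeletal muscle, PGC-1α is known to raise Fndc5, and T3 is a known inducer of Ppargc1a in several tissues.

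The arrays were close to each other as a whole. Their median log2 value over the tested features was between 6.85 and 6.95, and correlations between the 276 pairs of arrays were between 0.969 and 0.990. Cardiomyocyte markers were high on every array, with a mean over 9 genes between 18.13 and 18.42, and no marker of the list had a group mean below 4. The mean over 5 atrial markers varied far more between hearts. It was 11.34 to 15.44 in TRα1+/m mice and 11.17 to 16.04 in wild-type mice of T3-treated dams. In offspring of untreated dams it was 11.92 to 14.88 in TRα1+/m mice and 11.38 to 14.72 in wild-type mice. None of these 5 passed in any comparison (limma), and the part of atrial tissue in the results was not tested. On the first principal component, which held 17.5% of the variance, 5 arrays stood apart: those of TRα1+/m mice 16 and 17 and wild-type mice 14 and 15 of T3-treated dams and of TRα1+/m mouse 4 of untreated dams. All 5 had label numbers below 20, which 9 of the 24 mice had, and whether the numbers mark litters or batches was not given.

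Fndc5 lies on chromosome 4 of GRCm38.p6 at 129136870 to 129144593, on the plus strand. The bases just before its first annotated base are shown because it is the member that differed between the genotypes, and they were searched for the sites of the receptors concerned.
Fndc5, chr4:129136749-129136869, plus strand: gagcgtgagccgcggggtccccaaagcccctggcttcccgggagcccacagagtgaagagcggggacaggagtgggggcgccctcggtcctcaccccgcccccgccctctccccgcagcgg
In these 121 bases 76% were G or C. The full RefSeq window around the start had 82.3% G or C, above 99.6% of all such windows, whose median was 52.7%. The search took in both strands. The half-site AGGTCA, which thyroid hormone receptors, PPARs and oestrogen-related receptors share, was in 16.3% of 32851 RefSeq windows and in 0 of the 14 windows of the members. The thyroid hormone response element of 2 half-sites 4 bases apart (0.0152% of windows), the PPAR element of 2 half-sites 1 base apart (0.0396%) and the oestrogen-related receptor element TCAAGGTCA (0.423%), which all hold that half-site, were therefore in none of them either. These counts cover only those letters in windows at the gene starts, and 9 of the 10 symbols had a window.

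Under maternal T3, Fndc5 was lower in every TRα1+/m heart than in any wild-type heart. Its lowest, median and highest log2 values were 12.07, 12.26 and 12.50 in the 6 TRα1+/m mice of T3-treated dams, against 13.56, 13.89 and 13.96 in the 6 wild-type mice of T3-treated dams. The means were 12.25 ± 0.16 and 13.82 ± 0.15 (SD, n = 6 each). The groups did not overlap, and the TRα1+/m value was the higher one in 0 of 36 pairings. The log2 difference was -1.57 (SE 0.12, 95% interval -1.81 to -1.33), or 2.97-fold lower, with an adjusted p of 1.65e-09 (limma, Benjamini-Hochberg over all features). A two-sided exact permutation test gave p = 0.00216, the smallest that 924 labellings of 6 against 6 mice allow. By p Fndc5 had rank 2 among the 19801 features in this comparison, and by size of the fall rank 22. The difference for which Fndc5 was picked does not hold these 12 arrays, but earlier results of all arrays were known when the genes were chosen, and the fit takes its estimate of the spread from all 24.

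Without maternal T3, the comparison in which Fndc5 was chosen, its lowest, median and highest values were 11.80, 11.97 and 12.13 in TRα1+/m mice and 13.57, 13.67 and 13.87 in wild-type mice. The groups again did not overlap, and the difference was -1.72, or 3.29-fold lower in TRα1+/m mice.

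**Figure D1:**
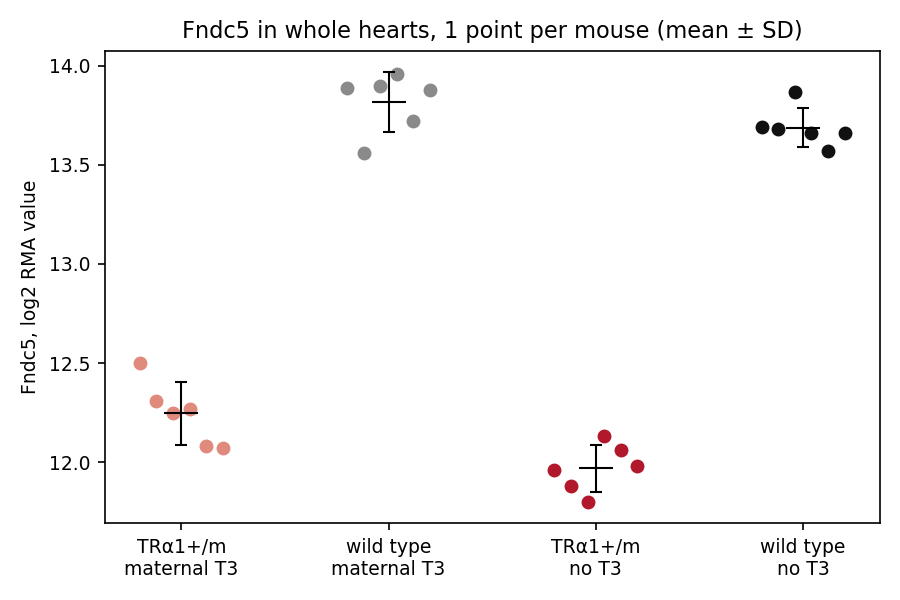
Fndc5 in whole hearts, as log2 RMA value on the vertical axis, for TRα1+/m and wild-type mice of T3-treated dams and TRα1+/m and wild-type offspring of untreated dams from left to right. Each point is 1 mouse (6 per group), and bars are the mean and SD; all 12 TRα1+/m values are at or below 12.50 and all 12 wild-type values at or above 13.56.

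In ascending order, the 4 group means were TRα1+/m without maternal T3 (11.97), TRα1+/m with it (12.25), wild type without (13.69) and wild type with it (13.82). Neither pair of the same genotype differed by the test across all features. After maternal T3 the change in wild-type mice was 0.13 (SE 0.12, 95% interval -0.11 to 0.37, adjusted p = 0.688, limma). In TRα1+/m mice it was 0.28 (SE 0.12, interval 0.04 to 0.52, adjusted p = 0.534, limma), with the T3-exposed mouse higher in 34 of 36 pairings. This second comparison shares the untreated TRα1+/m arrays with the one in which Fndc5 was chosen, as that in wild-type mice shares the untreated wild-type arrays. The difference between the T3 changes of the genotypes, the interaction, was 0.15 (95% interval -0.19 to 0.49, adjusted p = 0.9996, limma). The interaction did not pass, and in each treatment every TRα1+/m value lay below every wild-type value.

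The fall under maternal T3 was -1.70 without the 5 arrays that stood apart. Within label numbers above 30 (4 TRα1+/m and 3 wild-type mice of T3-treated dams) it was -1.69. Within those below 20 (2 and 3 mice) it was -1.37, with an unadjusted p of 1.71e-04 and an adjusted p of 0.0923 (limma). Since whole hearts were used, a smaller number of cells that express a gene and less RNA per cell cannot be told apart, here and for all genes that follow.

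Fndc5 is abundant in skeletal muscle. The skeletal muscle list had mean log2 levels over its 12 genes of 5.21 to 5.46 in TRα1+/m mice and 5.36 to 5.63 in wild-type mice of T3-treated dams, and of 5.52 to 6.13 in TRα1+/m mice and 5.55 to 5.64 in wild-type offspring of untreated dams. The log2 of its summed level was 9.30 to 9.63, 9.52 to 9.99, 9.55 to 10.20 and 9.64 to 9.94 in these groups. Under maternal T3, 1 of its 12 genes passed, beside 2.79% of all features: Casq1 (-0.89, adjusted p = 0.00855, limma), the calcium-binding protein of the fast muscle reticulum. Without maternal T3 none did, beside 1.62% (unadjusted 2 of 12, beside 11.5%). The part of these genes in the Fndc5 difference was not tested. On the chromosome, Fndc5 stands between Hpca and S100pbp, and neither passed by genotype under maternal T3 (0.08, SE 0.17, adjusted p = 0.901, and -0.01, SE 0.23, adjusted p = 0.996, limma).

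No other gene of the Fndc family and no gene for a subunit of the integrins to which irisin is known to bind passed in any comparison (limma). Of the list, 12 of 13 genes were tested, of which 0 had an unadjusted p under 0.05 by genotype under maternal T3 and 1 without it, with a median change of -0.03 by genotype under maternal T3 and 0.02 without it. Over all 19801 features 2.79% passed by genotype under maternal T3 (1.13% higher, 1.66% lower) and 1.62% without it. The shares with an unadjusted p under 0.05 were 13.7% under maternal T3 and 11.5% without it (limma). The largest departure by p under maternal T3 was that of Fndc4, the closest relative of Fndc5, with 5.62 ± 0.31 in TRα1+/m mice and 5.23 ± 0.13 in wild-type mice (SD, n = 6 each), a difference of 0.39 (SE 0.19, adjusted p = 0.373, limma). The integrin genes Itgav (0.09, adjusted p = 0.903) and Itgb5 (0.00, adjusted p = 0.998) did not pass under maternal T3 in the same fit.

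Among the 8 measured members, Fndc5 alone passed by genotype under maternal T3, which is 1 of 8 beside the 2.79% of all features. Nothing is read from this share, since Fndc5 was picked for its genotype difference with earlier results of all arrays known. The other 7, taken for their place in the pathway, did not pass and showed changes between -0.25 and 0.53. Unadjusted, 2 of the 8 had a p under 0.05 (Fndc5 and Ppara), beside 13.7% of all features. Without maternal T3 Fndc5 was again the 1 of 8 that passed, beside 1.62%, from which nothing is read since it was chosen there. After maternal T3, 0 of 8 passed in TRα1+/m mice, beside 0.0859% of all features (0.0101% higher and 0.0758% lower; unadjusted 3 of 8, beside 8.31%). In wild-type mice 0 of 8 passed, beside 0.00505% (unadjusted 2 of 8, beside 11%). For the interaction 0 of 8 passed, and 0% of all features did (unadjusted 0 of 8, beside 4.19%). All these counts are from limma, with Benjamini-Hochberg adjustment for the passes.

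**Figure D2:**
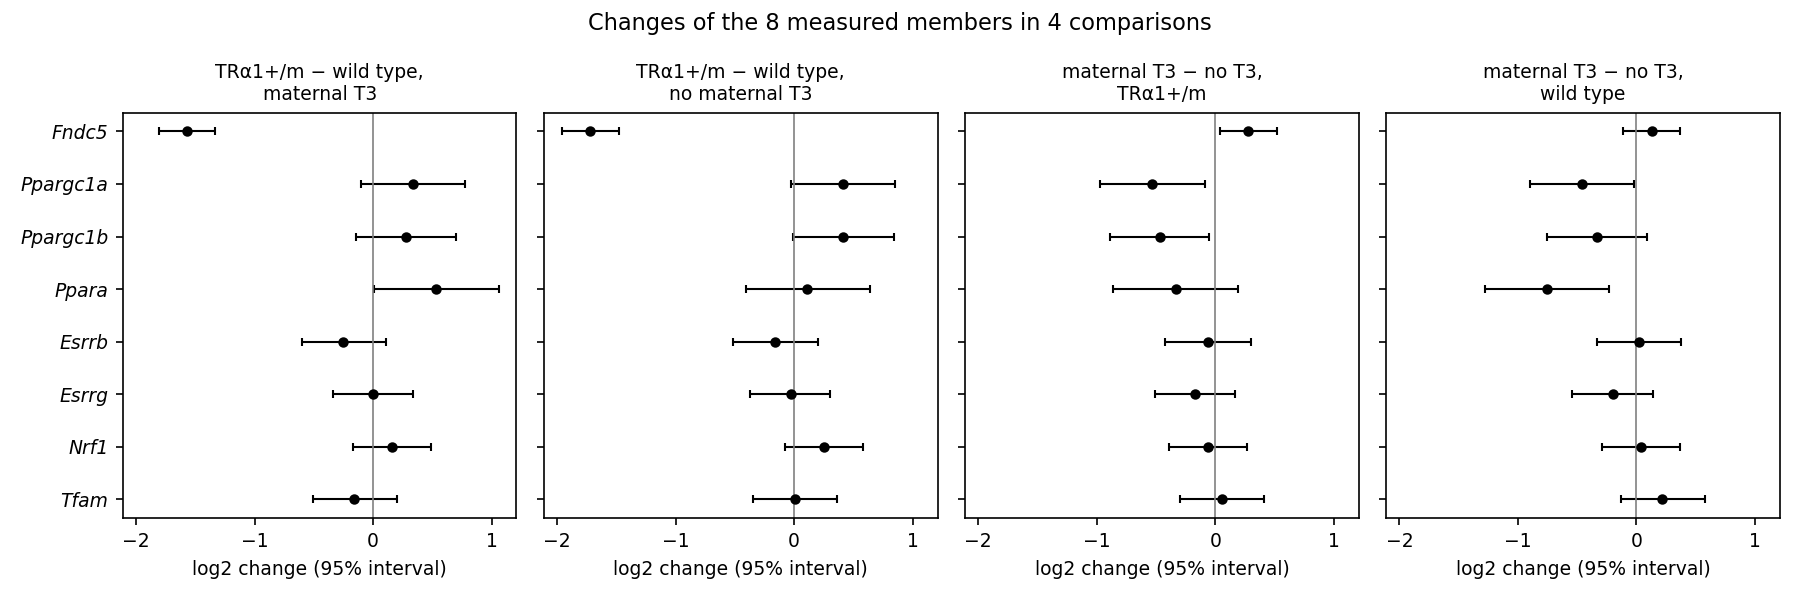
Log2 changes of the 8 measured members (points) with 95% intervals (bars), for TRα1+/m minus wild type with and without maternal T3 and for maternal T3 minus none in each genotype. Only the Fndc5 intervals of the genotype comparisons (-1.81 to -1.33 and -1.96 to -1.48) lie wholly below -1; the intervals of Ppargc1a, Ppargc1b and Ppara reach at most 1.06 in the genotype comparisons.

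The coactivator gene Ppargc1a had higher means in TRα1+/m hearts in both treatments, within a spread that let the groups overlap. Its lowest, median and highest log2 values were 14.97, 15.73 and 16.07 in TRα1+/m mice and 14.83, 15.51 and 15.59 in wild-type mice of T3-treated dams. Without maternal T3 they were 15.53, 16.05 and 16.86 in TRα1+/m mice and 15.49, 15.86 and 15.99 in wild-type mice. The difference was 0.34 under maternal T3 (95% interval -0.10 to 0.78, adjusted p = 0.528, limma) and 0.41 without it (-0.03 to 0.85, adjusted p = 0.491, limma). Neither passed, and the intervals leave room for changes from slightly below 0 to nearly a doubling. Without maternal T3 the direction also turned between the label ranges, with 0.83 for numbers above 30 (3 TRα1+/m and 5 wild-type mice) and -0.14 for those below 20 (3 and 1 mice). After maternal T3 the Ppargc1a means were lower in both genotypes, by -0.53 in TRα1+/m mice (interval -0.97 to -0.09, adjusted p = 0.524, limma) and by -0.46 in wild-type mice (-0.90 to -0.02, adjusted p = 0.439, limma). These comparisons share the untreated mice with the genotype comparison without T3.

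The 250 bases before 1 annotated start of Ppargc1a, part of its RefSeq window, are shown for their cAMP response half-site, TGACG, since cAMP signalling is a well-known inducer of the gene; the capitals mark the site, which reads CGTCA on this strand.
Ppargc1a, chr5:51567726-51567975, minus strand: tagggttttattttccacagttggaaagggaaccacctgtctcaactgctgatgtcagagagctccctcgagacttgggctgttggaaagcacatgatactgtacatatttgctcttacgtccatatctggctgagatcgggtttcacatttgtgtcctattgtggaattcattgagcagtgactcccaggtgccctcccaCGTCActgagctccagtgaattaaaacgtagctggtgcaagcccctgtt
The half-site was in 20.8% of all windows and in 4 of the 14 windows of the members.

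Ppargc1b, the gene of the second coactivator, gave a like picture. Its lowest, median and highest values were 10.86, 11.89 and 12.28 in TRα1+/m mice and 10.83, 11.60 and 11.91 in wild-type mice of T3-treated dams. Without maternal T3 they were 11.93, 12.30 and 12.52 in TRα1+/m mice and 11.52, 11.89 and 11.99 in wild-type mice, where the TRα1+/m value was higher in 34 of 36 pairings. The differences of 0.28 under maternal T3 (interval -0.14 to 0.70, adjusted p = 0.619) and 0.41 without it (-0.01 to 0.84, adjusted p = 0.451) did not pass (limma). That under maternal T3 was 0.14 without wild-type mouse 15, 0.18 without TRα1+/m mouse 50 and 0.46 without TRα1+/m mouse 17, and -0.06 in label numbers below 20 alone. The changes after maternal T3 were -0.47 in TRα1+/m mice (adjusted p = 0.550) and -0.33 in wild-type mice (adjusted p = 0.545, limma).

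Over both treatments together, none of the other measured members passed by genotype, beside 6.28% of all features (2.59% higher, 3.7% lower). The Fndc5 difference of -1.64 is given as a description there, since the comparison holds the arrays of its choice. Ppargc1a stood at 0.38 (interval 0.06 to 0.69, adjusted p = 0.163) and Ppargc1b at 0.35 (0.05 to 0.64, adjusted p = 0.187, limma). Whether these passed depended on the mice that entered: Ppargc1a was at 0.57 with an adjusted p of 0.0305 in label numbers above 30 alone and at 0.05 with an adjusted p of 0.966 in those below 20, and Ppargc1b at 0.44 with an adjusted p of 0.0353 without TRα1+/m mouse 17 of the T3-treated dams (limma). For maternal T3 over both genotypes 0 of 8 members passed, beside 0.0101% of all features. Without adjustment 4 of 8 had a p under 0.05, beside 16.3%: Fndc5 at 0.21, Ppargc1a at -0.50, Ppargc1b at -0.40 and Ppara at -0.54.

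**Figure D3:**
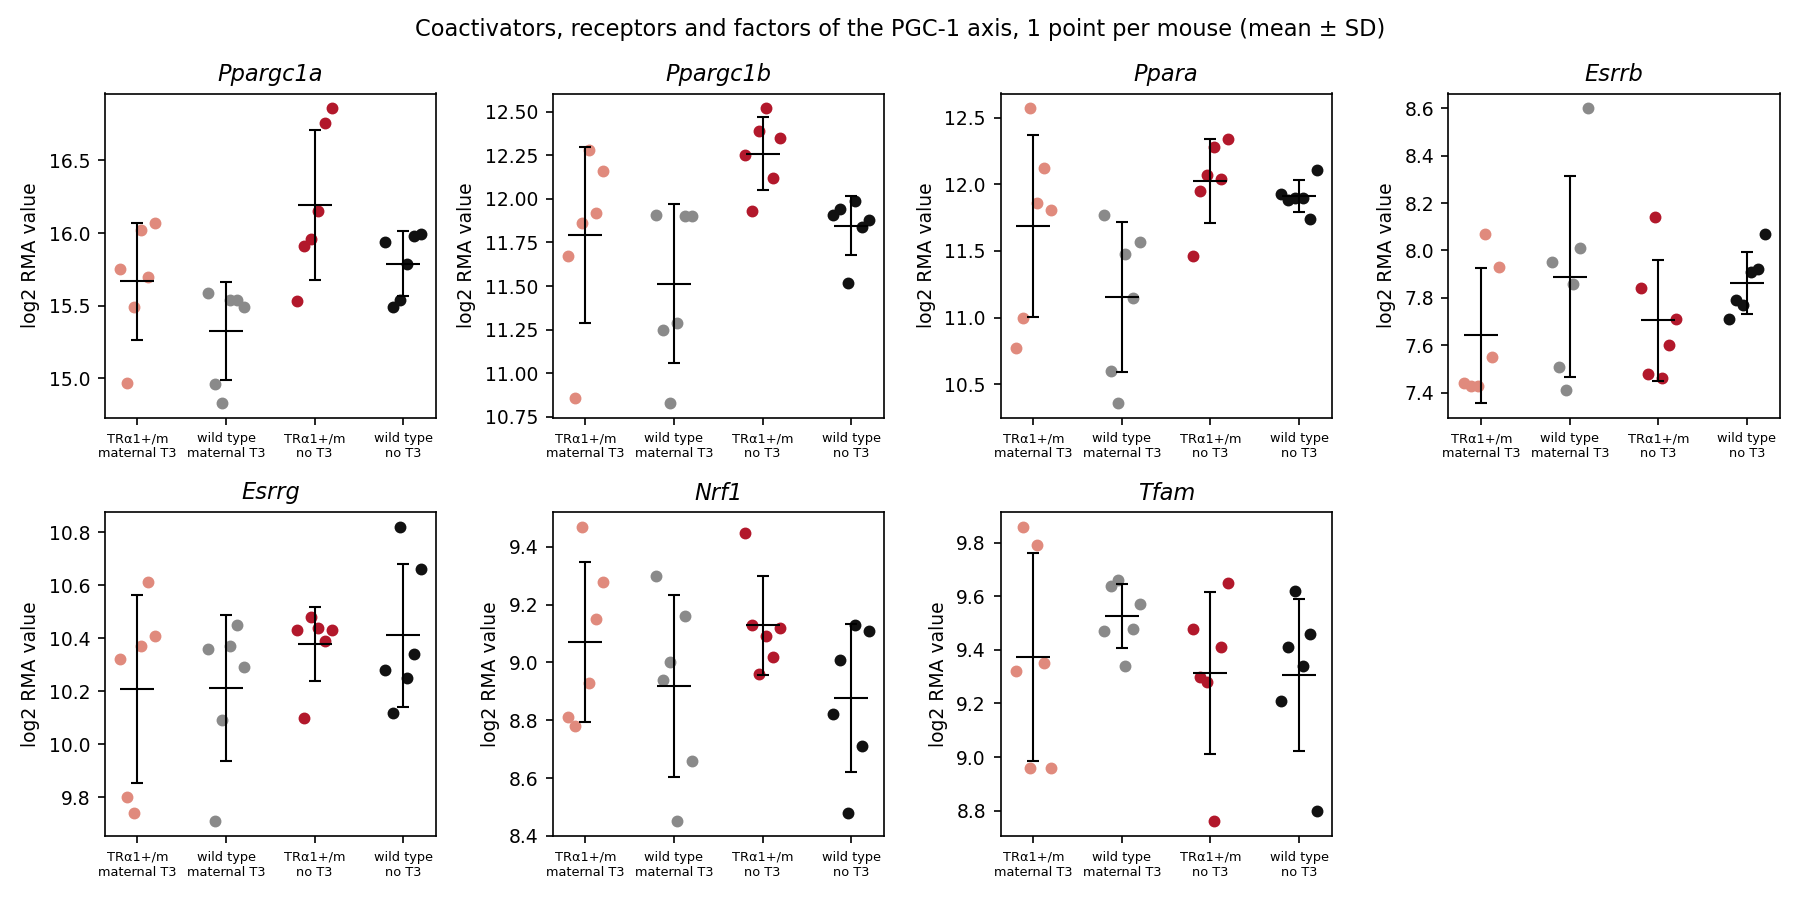
Log2 RMA values of the other 7 measured members in TRα1+/m and wild-type mice of T3-treated dams and TRα1+/m and wild-type offspring of untreated dams, from left to right in each panel. Each point is 1 mouse, bars are the mean and SD, and each panel has its own scale; in every panel the TRα1+/m and wild-type points of the same treatment overlap.

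Ppara encodes the nuclear receptor that senses fatty acids and switches on their oxidation. Its lowest, median and highest values were 10.77, 11.83 and 12.57 in TRα1+/m mice and 10.36, 11.32 and 11.77 in wild-type mice of T3-treated dams. In offspring of untreated dams they were 11.46, 12.06 and 12.34 in TRα1+/m mice and 11.74, 11.90 and 12.11 in wild-type mice. The T3-exposed wild-type hearts thus reached lowest, and their value was the higher one in 1 of 36 pairings with untreated wild-type hearts. That change was -0.75 (interval -1.28 to -0.23, adjusted p = 0.344, limma) and did not pass. With maternal T3, TRα1+/m mice had a Ppara change of -0.33 (adjusted p = 0.738), the interaction 0.42 (interval -0.32 to 1.16, adjusted p = 0.9996), and the genotype difference 0.53 under maternal T3 (adjusted p = 0.352) and 0.11 without it (adjusted p = 0.930, limma).

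A stretch of a Ppara window is shown because it was the only window of the members with the NRF1 element, GCGCA followed by its reverse complement; the element is in capitals.
Ppara, chr15:85735735-85735764, plus strand: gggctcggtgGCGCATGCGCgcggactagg
The element was in 0.971% of all windows.

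The spread of Ppara within groups followed the 5 arrays that stood apart. In these 5 its values were 10.36 to 11.46, against 11.15 to 12.57 in the other 19. With group means removed, its correlation with the first principal component over the 24 arrays was -0.87, that of Ppargc1b -0.69 and that of Ppargc1a -0.68, while that of Fndc5 was 0.17. These are descriptions, since the arrays share 1 normalisation and the component was computed from genes that include these. Without the 5 arrays the change with maternal T3 over both genotypes was -0.23 for Ppara, -0.38 for Ppargc1a and -0.15 for Ppargc1b, and 4 of the 5 were arrays of T3-exposed mice. The genotype difference of Ppara over both treatments was 0.32 (adjusted p = 0.367) with all arrays and 0.41 (adjusted p = 0.0285, limma) without the 5. It was 0.50 (adjusted p = 0.0392) in label numbers above 30 alone and -0.06 (adjusted p = 0.962, limma) in those below 20. What sets these arrays apart was not tested.

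**Figure D4:**
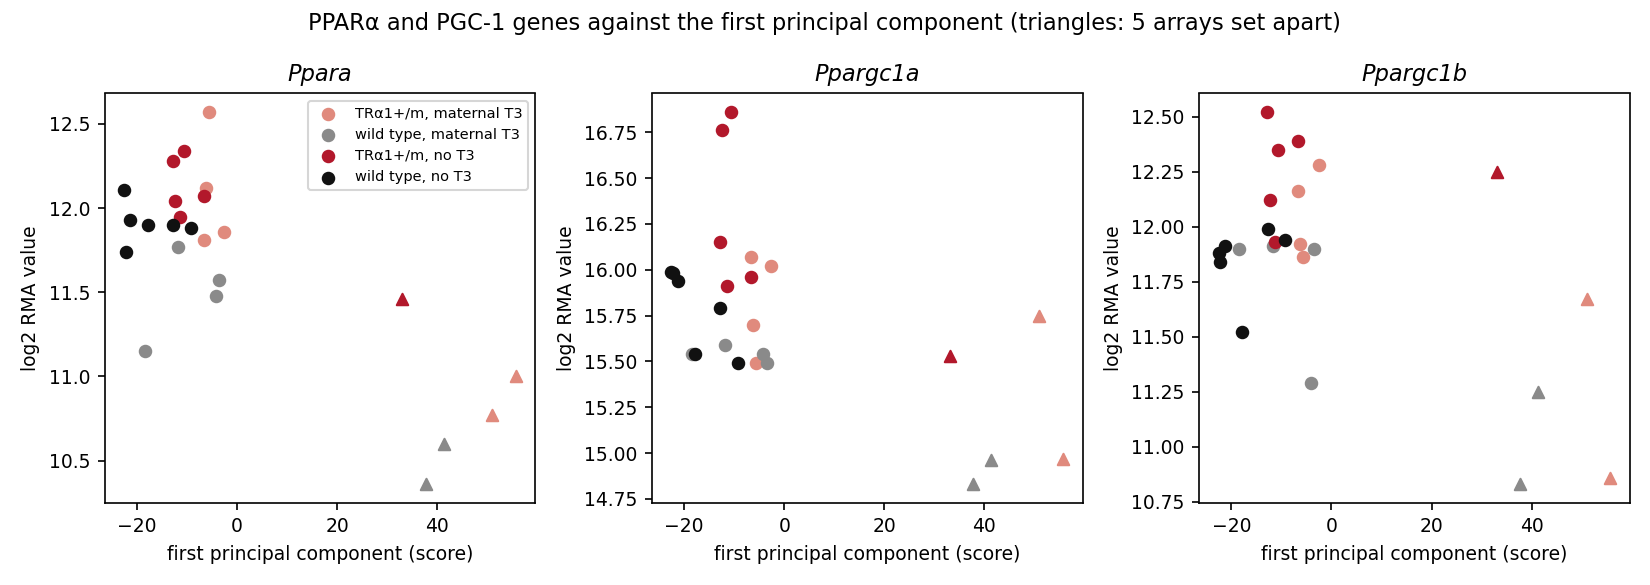
Log2 RMA values of Ppara, Ppargc1a and Ppargc1b against the score of each array on the first principal component (no unit). Each point is 1 mouse, coloured by group; triangles are the 5 arrays that stood apart, in which Ppara was 10.36 to 11.46.

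The members also varied together within groups in part through these arrays. With group means removed, Ppargc1a and Ppargc1b had a correlation of 0.60 over 24 arrays and 0.25 over the 19 without the 5. Ppara and Ppargc1b had 0.62 and -0.06, and Ppara and Ppargc1a 0.51 and -0.11. Esrrb and Ppargc1b had 0.65 and 0.50, so this pair rested less on the 5 arrays. Between Fndc5 and Ppargc1a the value was 0.06 in both sets, near 0.

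The oestrogen-related receptors measured, Esrrb and Esrrg, passed in no comparison. Esrrg, the form known for its part in the switch of the newborn heart to oxidative metabolism, ranged from 9.74 to 10.61 in TRα1+/m mice and 9.71 to 10.45 in wild-type mice of T3-treated dams, and from 10.10 to 10.48 in TRα1+/m mice and 10.12 to 10.82 in wild-type offspring of untreated dams. Its genotype difference without maternal T3 was -0.03 (interval -0.37 to 0.30, adjusted p = 0.973, limma), and under maternal T3 the interval was -0.34 to 0.34. Esrrb, better known from embryonic stem cells, ranged from 7.43 to 8.07 in TRα1+/m mice and 7.41 to 8.60 in wild-type mice of T3-treated dams. The range was 7.46 to 8.14 in TRα1+/m mice and 7.71 to 8.07 in wild-type offspring of untreated dams. Its mean was lower in TRα1+/m mice by -0.25 under maternal T3 (adjusted p = 0.598) and by -0.16 without it (adjusted p = 0.816, limma).

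Nrf1 and Tfam, the link from the coactivators to mitochondrial DNA, did not pass either. Nrf1 ranged from 8.78 to 9.47 in TRα1+/m mice and 8.45 to 9.30 in wild-type mice of T3-treated dams, with a difference of 0.16 (interval -0.17 to 0.49, adjusted p = 0.755, limma). Without maternal T3 it ranged from 8.96 to 9.45 in TRα1+/m mice and 8.48 to 9.13 in wild-type mice, with a difference of 0.25 (-0.08 to 0.58, adjusted p = 0.614, limma). Tfam ranged from 8.96 to 9.86 in TRα1+/m mice and 9.34 to 9.66 in wild-type mice of T3-treated dams, and the difference was -0.16 (-0.51 to 0.20, adjusted p = 0.774, limma). Without maternal T3 its means were both 9.31 and the difference 0.01 (-0.35 to 0.36, adjusted p = 0.996, limma).

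Among 23 tested genes for further partners and regulators of PGC-1, 1 fell by genotype in each treatment (beside 1.66% of all features under maternal T3 and 1.06% without it), Lpin1, whose protein lipin-1 makes diacylglycerol and coactivates PPARα together with PGC-1α. Lpin1 had a lowest, median and highest value of 12.99, 13.95 and 14.10 in TRα1+/m mice and 13.84, 14.53 and 14.83 in wild-type mice of T3-treated dams. Without maternal T3 these were 13.17, 13.89 and 14.02 in TRα1+/m mice and 14.61, 14.83 and 14.99 in wild-type mice, and the groups did not overlap. The change was -0.72 under maternal T3 (SE 0.20, adjusted p = 0.0485) and -1.0 without it (SE 0.20, adjusted p = 0.00498, limma). The call under maternal T3 lay at the threshold and was lost in 18 of the 24 fits that each left out 1 mouse, with changes from -0.83 to -0.58; that without maternal T3 was lost in 0 of 24. Pparg, the adipose member of the PPAR family, passed over both treatments (0.54, SE 0.14, adjusted p = 0.0142, limma), with means of 8.83 ± 0.42 in TRα1+/m mice and 8.44 ± 0.28 in wild-type mice of T3-treated dams and of 8.73 ± 0.25 in TRα1+/m mice and 8.03 ± 0.39 in wild-type offspring of untreated dams (SD, n = 6 each). Median changes of the list were 0.02 under maternal T3 and -0.06 without it, beside medians of -0.01 over all features in both.

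Of 26 tested PPAR target genes, 2 rose by genotype under maternal T3 and 0 fell, beside 1.13% and 1.66% of all features, and the median change was 0.12. Acot1, a thioesterase that frees fatty acids from their CoA esters, had a lowest, median and highest value of 8.56, 8.99 and 9.41 in TRα1+/m mice and 7.41, 8.07 and 8.50 in wild-type mice. The groups did not overlap, and the difference was 0.98 (SE 0.21, adjusted p = 0.00768, limma). Slc27a1, the fatty acid transport protein FATP1, had 15.08, 15.24 and 15.83 in TRα1+/m mice and 14.40, 14.56 and 14.73 in wild-type mice, again without overlap, a difference of 0.76 (SE 0.15, adjusted p = 0.00240, limma). Without maternal T3, 0 of the 26 passed, beside 1.62% of all features (unadjusted 3, beside 11.5%). Acot1 then had a difference of 0.65 (adjusted p = 0.139, limma), and the median of the list was 0.07. Slc27a1 had a difference of 0.42 without maternal T3 (adjusted p = 0.174, limma), and its interaction was 0.34 (SE 0.21, adjusted p = 0.9996, limma). Over both treatments the list had 3 rises, these 2 and Acadl, the long-chain acyl-CoA dehydrogenase (0.25, adjusted p = 0.0454, limma), whose call was lost in 20 of 24 fits without 1 mouse. The classical targets Cpt1b (0.13, adjusted p = 0.760), which carries fatty acids into mitochondria, and Pdk4 (0.73, adjusted p = 0.397), which shuts off pyruvate oxidation, did not pass under maternal T3 in the same fit.

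**Figure D5:**
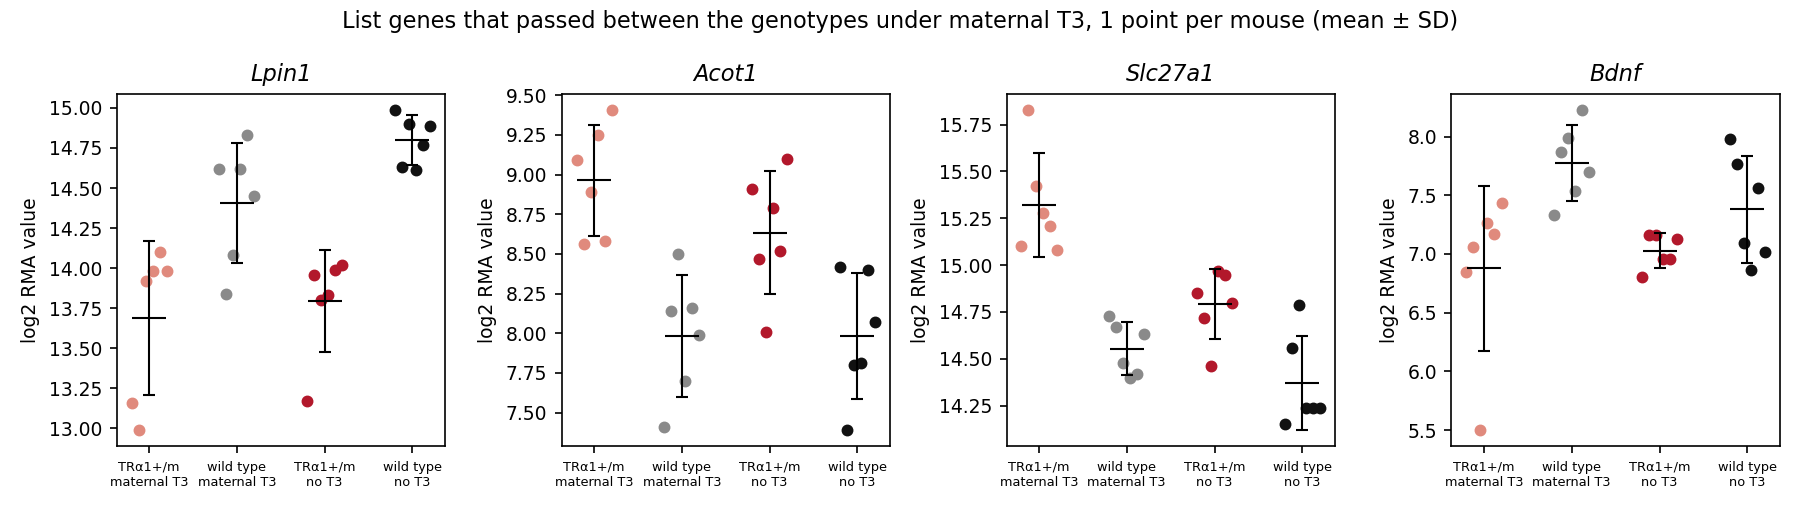
Log2 RMA values of Lpin1, Acot1, Slc27a1 and Bdnf, the list genes that passed by genotype under maternal T3, in TRα1+/m and wild-type mice of T3-treated dams and TRα1+/m and wild-type offspring of untreated dams from left to right. Each point is 1 mouse and bars are the mean and SD; Acot1 and Slc27a1 do not overlap between the 2 groups of T3-treated dams, Lpin1 and Bdnf do.

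Of 17 tested target genes of oestrogen-related receptors and NRF1, none passed in either treatment alone (limma). Unadjusted, 3 did in each, beside 13.7% of all features under maternal T3 and 11.5% without it. When the 5 arrays were left out, Ckmt2 and Cox7a1 fell without maternal T3 and Cox7a1 under it. Among all features, that refit had more falls without maternal T3 and fewer under it than the fit of all arrays. With all arrays the median change by genotype was -0.09 under maternal T3 and -0.19 without it. Over both treatments 2 fell and 0 rose, beside 3.7% and 2.59% of all features: Ckmt2, the mitochondrial creatine kinase of muscle (-0.43, SE 0.11, adjusted p = 0.0113, limma), and Cox7a1, the muscle form of a cytochrome c oxidase subunit (-0.85, SE 0.25, adjusted p = 0.0391, limma). Cox7a1 was at 13.69 ± 0.89 in TRα1+/m mice and 14.64 ± 0.82 in wild-type mice of T3-treated dams, and 13.33 ± 0.62 in TRα1+/m mice and 14.08 ± 0.25 in wild-type offspring of untreated dams (SD, n = 6 each). Without the 5 arrays that stood apart, 4 fell, with Cox5a and Mdh2 added, and Cox7a1 was at -1.0 (adjusted p = 1.41e-05, limma). This refit was chosen after seeing the data, and more of all features fell in it than with all arrays. The larger count is therefore not read as particular to the list. Of 14 tested genes for the expression and upkeep of mitochondrial DNA, 2 fell over both treatments and 0 rose, beside the same shares of all features, with a median of 0.04. These were Tfb2m, the mitochondrial transcription initiation factor (-0.41, SE 0.10, adjusted p = 0.0113), and Tefm, the elongation factor (-0.64, SE 0.19, adjusted p = 0.0362, limma). Tefm was at -0.37 (adjusted p = 0.315, limma) without the 5 arrays. When each mouse was left out in turn, the calls of Cox7a1 and Tefm were lost in 15 and 10 of the 24 fits, and those of Ckmt2 and Tfb2m in 0.

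Of 11 other myokine genes, 1 fell by genotype under maternal T3 (beside 1.66% of all features), Bdnf, a neurotrophin that in hippocampus has been linked to Fndc5. Its lowest, median and highest values were 5.50, 7.12 and 7.43 in TRα1+/m mice and 7.33, 7.78 and 8.23 in wild-type mice of T3-treated dams, a difference of -0.90 (SE 0.25, adjusted p = 0.0441, limma) that was lost in 14 of 24 fits without 1 mouse and without the 5 arrays (-0.86, adjusted p = 0.206, limma). Over both treatments Bdnf (-0.62, adjusted p = 0.0276) and Il15 (-0.53, adjusted p = 0.0321, limma), a cytokine gene also used by skeletal muscle, fell; the calls were lost in 3 and 9 of the 24 fits, and without the 5 arrays Bdnf was at -0.58 (adjusted p = 0.120, limma). None of the list genes passed for maternal T3 in either genotype, over both, or for the interaction (limma). Unadjusted, 0 to 6 genes of a list did, beside 8.31% of all features in TRα1+/m mice, 11% in wild-type mice, 16.3% over both and 4.19% for the interaction. For maternal T3 over both, it was 6 of 23 PGC-1 partners, 6 of 26 PPAR targets and 5 of 17 targets of oestrogen-related receptors and NRF1. The other lists had 3 of 14 mitochondrial DNA genes, 3 of 11 myokines and 0 of 12 irisin family genes. Over both genotypes the change was positive in 15 of 17 targets of oestrogen-related receptors and NRF1 (median 0.19) and 12 of 14 mitochondrial DNA genes (0.17). It was in 19 of 26 PPAR targets, 6 of 11 myokines, 6 of 12 irisin family genes and 8 of 23 PGC-1 partners. Over all features 47.1% were positive (median -0.01), and no list was tested as a set.

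Markers of other cell types were compared between the genotypes, where 2.59% of all features rose and 3.7% fell over both treatments. Over both treatments 3 of 4 fibroblast markers rose (Col1a1, Col1a2 and Col3a1). Those that fell were 2 of 5 endothelial markers (Vwf and Tie1), 1 of 5 leukocyte (Csf1r), 1 of 12 skeletal muscle (Casq1) and 1 of 9 cardiomyocyte markers (Mybpc3, -0.33). In either treatment alone no fibroblast or cardiomyocyte marker passed. Vwf fell in both, Casq1 only under maternal T3, and Tie1 and Csf1r only without it. Csf1r was at -1.06 without maternal T3 and -0.26 under it. The log2 of the summed fibroblast level was 13.83 to 15.50 in TRα1+/m mice and 12.91 to 14.24 in wild-type mice of T3-treated dams, and 13.38 to 14.72 in TRα1+/m mice and 12.98 to 13.50 in wild-type offspring of untreated dams. The 7 adipocyte markers had mean levels of 5.06 to 10.26 in TRα1+/m mice and 5.29 to 7.49 in wild-type mice of T3-treated dams. They were at 5.03 to 8.17 in TRα1+/m mice and 5.19 to 6.99 in wild-type offspring of untreated dams. By genotype over both treatments 0 of 7 passed (unadjusted 2, beside 17.9% of all features, limma). Their log2 summed levels were 9.10 to 14.26, 9.56 to 11.41, 9.12 to 11.62 and 9.40 to 10.69 in these groups, and Elovl3 was below 4 in both wild-type groups. Pparg and Slc27a1 are also used by adipocytes, and the part of these cell types in the list genes above was not tested.

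The genes most like Fndc5 over the 24 arrays were taken by Pearson correlation, as a description. With the group means kept they were Bsg (0.924), Ogfrl1 (0.923), Hcn2 (0.919), Lims2 (0.912) and Apobec1 (0.910), all lower in TRα1+/m hearts, as the correlation carries the genotype difference by which Fndc5 was chosen. Hcn2, a pacemaker channel gene, had means of 6.14 in TRα1+/m mice and 7.53 in wild-type mice of T3-treated dams. With the group means removed, other genes led: Dcbld2 (0.701), Serpina3i (0.693), Olfr837 (0.678), Idnk (0.672) and Ccdc34 (0.664), and none of them was in both sets.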

How the data were processed

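The authors isolated RNA of 24 whole hearts, hybridised Clariom S mouse arrays and computed the deposited log2 values by RMA (Transcriptome Analysis Console 4.0.1), that is, with background correction, quantile normalisation and a summary per probe set. Such values compress differences near background, and arrays carry no read depth, so that their number limits the precision. Of 28846 probe sets, 6640 controls were set aside. Gene symbols were those of the platform annotation, matched by gene number to RefSeq (GRCm38.p6); 19572 probe sets had 1 symbol and 2634 none, and 67 further probe sets of a symbol were dropped for that with the highest mean. The 19801 features with a group mean above 4 were tested. No 2 arrays were identical.

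The 4 groups followed the labels. All contrasts were fitted on all 24 arrays with limma 3.58.1 (lmFit, eBayes, R 4.3.3, prior df 6.80), with Benjamini-Hochberg adjustment over all features and a threshold of 0.05; p-values measure the spread between these mice. For single values, mice were also relabelled in all ways (two-sided exact permutation). The fits were also run on simulated data with noise independent between arrays, which cannot show how they handle litters or arrays that stand apart. The members and gene lists were chosen with earlier results of these data known. List genes were named by rule: up to 4 that passed per list and comparison, otherwise that with the smallest p; Cpt1b, Pdk4, Itgav, Itgb5, Cox5a and Mdh2 were named after their values were seen. Promoter windows are from RefSeq (GRCm38.p6). Alternatives covered the filter, fit settings, array weights, label number ranges, centring, pairs of groups alone, a methods-like two-factor test, thresholds and leaving out mice.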

Additional observations from a re-analysis of the deposited data

Results flagged for a closer look

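In 32 checks of 8 members in 4 groups of 6, a single mouse lay apart from its group in 3; chance gives about 1 group in 20. Ppargc1b was 11.52 in wild-type mouse 39 of the untreated dams, against 11.84 to 11.99 in the other mice of that group. Esrrg was 10.10 in TRα1+/m mouse 5 of the untreated dams, against 10.39 to 10.48 in the others. Nrf1 was 9.45 in TRα1+/m mouse 4 of the untreated dams, against 8.96 to 9.13 in the others, and this mouse is 1 of the 5 that stood apart on the first principal component.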

How the results depend on the processing

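Of 656 changes of members under alternative settings, 640 kept their call, 15 passed only under the alternative, 1 was lost and 0 reversed. In 38 that had not passed the sign changed. Fits without single mice and changes given as descriptions are left out of this tally. It includes other thresholds on the same main fit, among them the unadjusted p. The call that was lost was that of Fndc5 under maternal T3 with label numbers below 20 alone, at -1.37. Only 9 mice are in that fit, with 1 untreated wild-type mouse, which is assumed to vary like the other groups. Without maternal T3 the Fndc5 difference, given as a description, was -1.81 in that range, where that 1 mouse is the whole wild-type group. With an unadjusted p, 2 members passed by genotype under maternal T3, 3 for maternal T3 in TRα1+/m mice, 2 in wild-type mice and 4 over both genotypes. By genotype over both treatments 3 did, beside 17.9% of all features. The counts by genotype over both treatments include Fndc5, whose difference there is a description. With label numbers above 30 alone 3 passed, and without the 5 arrays that stood apart (chosen after seeing the data) 2 did, Fndc5 included in both. Among all features, fewer rose and fewer fell with label numbers above 30 alone than in the main fit. Without the 5 arrays more rose and more fell. When single mice were left out 1 to 2 passed, the 2 without TRα1+/m mouse 17 of T3-treated dams. The cause of these shifts was not tested. Fndc5 under maternal T3 was -1.62 to -1.53 when each mouse was left out in turn. The list genes that passed were refitted without single mice, without the 5 arrays and within label ranges. This was also decided after seeing the data. With label numbers below 20 alone, all kept their direction. There, the changes by genotype under maternal T3 were -1.11 for Lpin1, 0.81 for Acot1, 0.84 for Slc27a1 and -0.77 for Bdnf. Another probe set of each member was not run, since each had 1. No paired analysis was possible because the label numbers differ between the groups.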
